A study of Mus musculus with 6 samples.

Results

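The genes described here encode the proteins of the mitochondrial ribosome, and their ribosome-associated RNA was compared between control and Gsk3sKO mPFC D2 neurons. They were chosen by name, as the genes whose symbol is Mrpl or Mrps followed by a number and at most 1 letter, which gave 77 of the 47729 genes in the deposited table. By name, 48 of them belong to the large subunit (Mrpl) and 29 to the small subunit (Mrps), and together they were listed as 290 of 115220 transcripts. Every one of the 77 had a mean level of at least 1 FPKM over the 6 libraries, so the filter on low values removed no member.

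The mitochondrial ribosome, or mitoribosome, translates the few mRNAs that are transcribed from mitochondrial DNA, and their products are membrane-embedded core subunits of the respiratory chain and ATP synthase. Its proteins are encoded in the nucleus, translated on cytosolic ribosomes and imported, whereas its rRNAs come from mitochondrial DNA. The large subunit joins amino acids and releases the growing chain through an exit tunnel, and the small subunit holds the mRNA and reads its codons. Neurons depend strongly on oxidative phosphorylation, so the assembly of this ribosome is part of how they keep up their energy supply.

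All mice were adult males of the C57BL/6 strain that carried D2Cre, LSL-Flag-Cas9 and RiboTag alleles, and all were injected with a virus in the medial prefrontal cortex (mPFC). D2Cre is a bacterial artificial chromosome transgene that expresses Cre recombinase under Drd2 regulatory sequence, and Cre switches on both the Cas9 nuclease and a hemagglutinin-tagged Rpl22, a protein of the cytosolic ribosome. The 3 Ctrl libraries came from mice given AAV GFP and the 3 Gsk3sKO libraries from mice given AAV Gsk3sgRNA/GFP, whose guide RNA directs Cas9 to Gsk3b, the gene of glycogen synthase kinase 3β. The mPFC was taken 3 weeks later, tagged ribosomes were immunoprecipitated and the bound RNA was sequenced. Tagged ribosomes come from every Cre-positive cell in the dissected tissue, infected or not, and no control virus carried a guide RNA against another site. It is not stated in the sources used here if the 3 libraries per group are separate mice or pools, so a p-value reflects only library-to-library spread, possibly of technical origin.

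Levels are given as FPKM, fragment counts scaled by transcript length and library size, which allows levels of different genes to be compared per length. Transcript FPKM were added up to a total for each gene, and limma was run on log2(FPKM + 1) of the 12874 gene totals that passed the filter. A log2 fold change is always Gsk3sKO minus Ctrl on that scale, given with its standard error (SE) from limma, and the scale understates the change of genes at low FPKM. The spacing of low values put the reads behind the libraries at about 23.5 to 45.1 M, an approximate figure since no more than 17.8% of the low values lay on a whole-read step. The targeted gene Gsk3b had totals of 35.6, 53.8 and 56.5 FPKM in Ctrl against 36.9, 37.0 and 33.6 FPKM in Gsk3sKO. The groups overlapped because Ctrl replicate 1 lay within the Gsk3sKO range, and the limma log2 fold change was -0.40 (SE 0.19, unadjusted p = 0.0648). Edited and intact transcripts are counted together, so the share of edited cells cannot be read from this level. By immunostaining of D2Cre/LSL-Flag-Cas9 mice, the authors reported that most Cas9-positive mPFC cells lacked GSK3β protein after AAV Gsk3sgRNA/GFP. The neuronal markers Snap25, Rbfox3, Tubb3 and Syt1 summed to 1725 to 1877 FPKM in Ctrl and 1725 to 1936 FPKM in Gsk3sKO. Drd2 itself was low, at 1.58, 6.02 and 14.1 FPKM in Ctrl against 8.32, 5.96 and 7.28 FPKM in Gsk3sKO, with the lowest level in Ctrl replicate 1.

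Of the 77 mitoribosome genes, 10 were lower and 1 was higher in Gsk3sKO at an unadjusted limma p under 0.05. Over all gene totals 5.2% were lower and 1.36% were higher by the same rule. None of the 77 passed an adjusted p under 0.05 in limma, where 6 of all gene totals (0.0466%) did, and the smallest adjusted p of a member was 0.671. Without moderation of the variances, an ordinary linear model gave 1 Mrpl gene (2.08%) and 0 Mrps genes at an unadjusted p under 0.05, with Mrpl23 lower, where 3.86% of all gene totals were lower, so the Mrpl share did not exceed the background in that model. The levels of the 3 Gsk3sKO libraries all lay below those of the 3 Ctrl libraries for 12 members and all above for 2, where 8.3% and 3.71% of all gene totals did so.

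The large and the small subunit differed in these counts. Among the 48 Mrpl genes, 8 were lower (16.7%) and 0 higher, 40 had a log2 fold change below 0 (83.3%), and the median log2 fold change was -0.29 with quartiles of -0.45 and -0.13. Among the 29 Mrps genes, 2 were lower (6.9%) and 1 was higher, 19 had a log2 fold change below 0 (65.5%), and the median was -0.12 with quartiles of -0.26 and 0.07. Over all gene totals 58.9% had a log2 fold change below 0, and the median was -0.06. The share of Mrps genes called lower was thus close to the background of 5.2%, while that of Mrpl genes stood above it in this fit. Whether the subunits differ from each other was not tested. The excess of Mrpl calls depended on single libraries. Without Gsk3sKO replicate 2, 2 Mrpl genes were lower (4.17%) against 3.74% of all gene totals, so the share was near the background. Without Ctrl replicate 1 or Ctrl replicate 2, 3 were lower (6.25%) against 4.26% and 3.43%, and without Gsk3sKO replicate 3, 5 were lower (10.4%) against 4.04%. Leaving out Ctrl replicate 3 or Gsk3sKO replicate 1 gave 5 and 8 lower (10.4% and 16.7%) against 5.47% and 7.25%. The Mrps median lay between -0.17 and -0.0245 with single libraries left out, nearest 0 without Ctrl replicate 1.

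**Figure D1:**
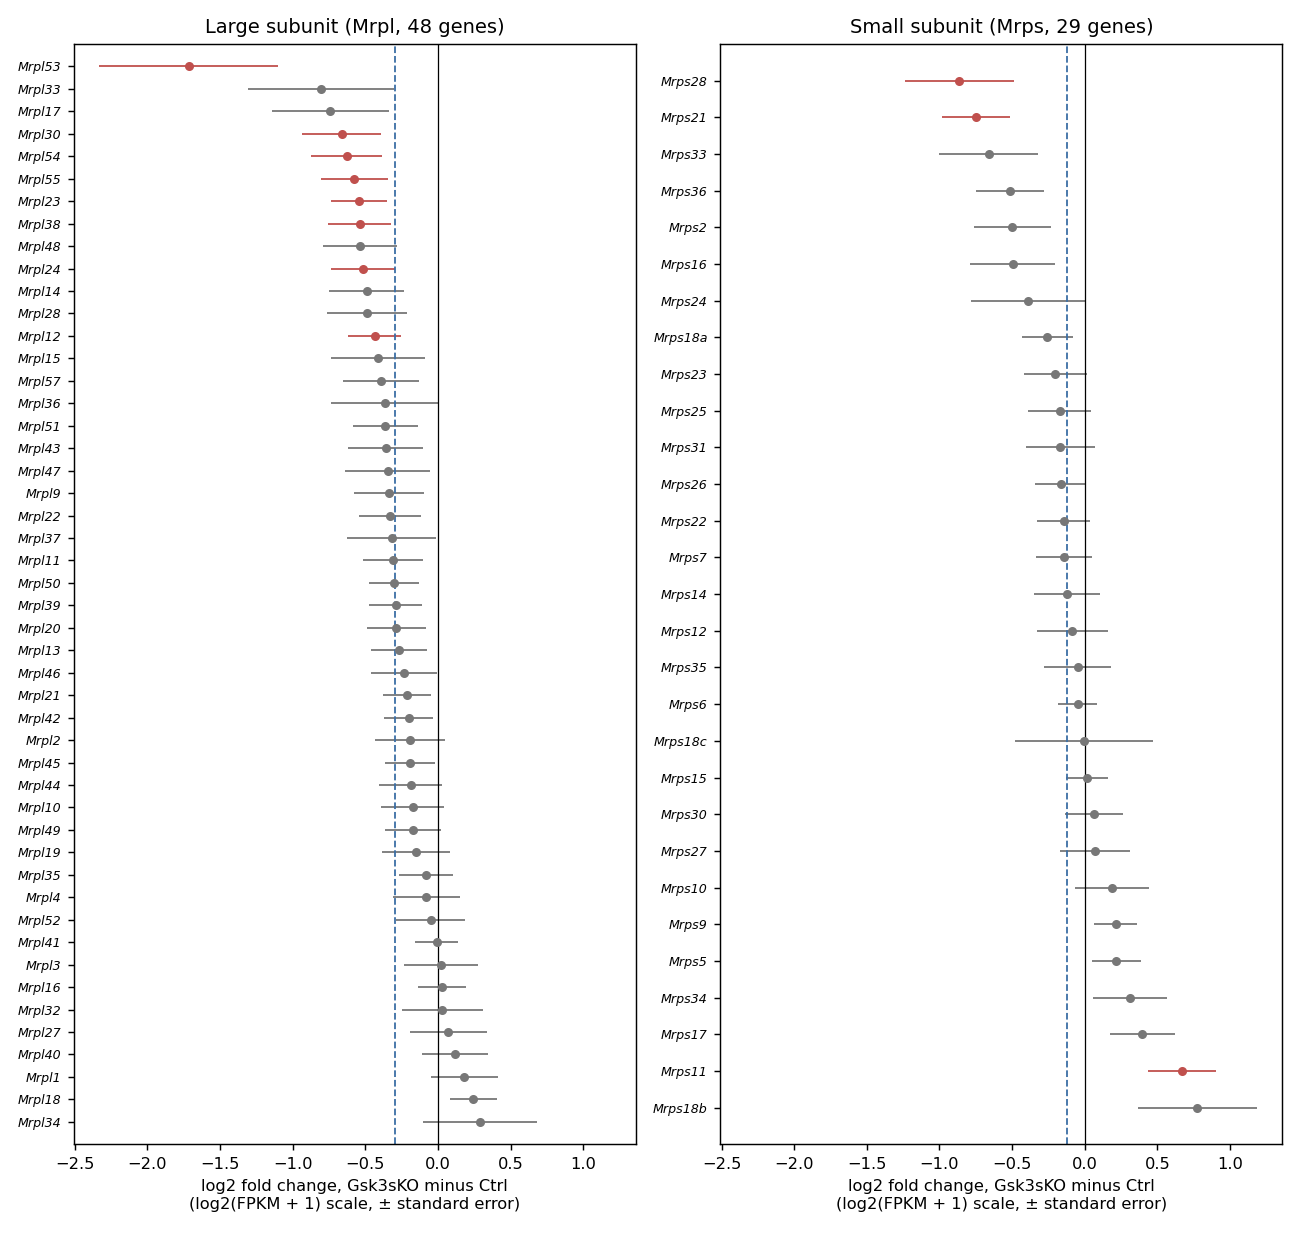
Log2 fold change of the gene total (Gsk3sKO minus Ctrl, log2(FPKM + 1) scale, horizontal axis) of each of the 48 Mrpl genes (left) and 29 Mrps genes (right), with bars of ± 1 standard error from limma. Red marks an unadjusted p under 0.05 and the dashed line is the median of the subunit, at -0.29 for Mrpl and -0.12 for Mrps, and most Mrpl points lie left of 0.

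The direction of calls over all genes depended on how the libraries were scaled, which bears on both subunits. The 844 gene totals called with the deposited FPKM (6.56%) split into 669 lower and 175 higher. After each library was rescaled by the median ratio of its genes, 528 were lower and 276 higher, and after a correction of each library for GC content and transcript length, chosen after seeing the data, 360 were lower and 439 higher. With median-ratio scaling 4 Mrpl genes were lower (8.33%, against 4.1% of all gene totals), namely Mrpl23, Mrpl38, Mrpl53 and Mrpl55, and with the GC and length correction 2 were (4.17%, against 2.8%), namely Mrpl30 and Mrpl53. The Mrpl median was -0.24 and -0.19 and the Mrps median -0.07 and -0.0029 in these fits, where the median of all gene totals was -0.01 and 0.02. Mitoribosome genes have short transcripts, with a median length of 1223 bases for the leading transcript against 2741 over all gene totals tested, and a near-equal GC content of 50.7% against 50.2%. The part of length in the Mrpl counts was not tested beyond that correction.

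Library by library, the summed Mrpl level was 929, 793 and 771 FPKM in Ctrl against 775, 684 and 637 FPKM in Gsk3sKO, or 831 ± 85.5 against 698 ± 70.1 as group means (SD, n = 3). The groups overlapped by a narrow margin, since Gsk3sKO replicate 1 lay just above Ctrl replicate 3, while Ctrl replicate 1 was far above the rest. The summed Mrps level was 551, 485 and 427 FPKM in Ctrl against 450, 429 and 449 FPKM in Gsk3sKO, or 488 ± 61.8 against 443 ± 12.2 as group means (SD, n = 3). Here the Gsk3sKO libraries lay inside the Ctrl range. The FPKM of all gene totals together summed to 605888, 547047 and 411986 in Ctrl and to 420016, 396474 and 382770 in Gsk3sKO, a larger relative difference of group means (521640 against 399753) than that of either subunit, although 1 gene in that sum had a mean of 79050 FPKM over the libraries. Taken gene by gene against the Ctrl mean, the median deviation of Mrpl genes on the log2 scale was -0.11, -0.30 and -0.35 in Gsk3sKO replicates 1 to 3, so replicate 1 differed least from Ctrl, and over all gene totals the medians kept the same order at lower size, -0.003, -0.06 and -0.10. For Mrps genes these medians were -0.09, -0.20 and -0.11. Over the 6 libraries, pairs of Mrpl genes had a median Pearson's r of 0.311 and pairs of Mrps genes one of 0.0417, as a description of points that share libraries and depth.

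**Figure D2:**
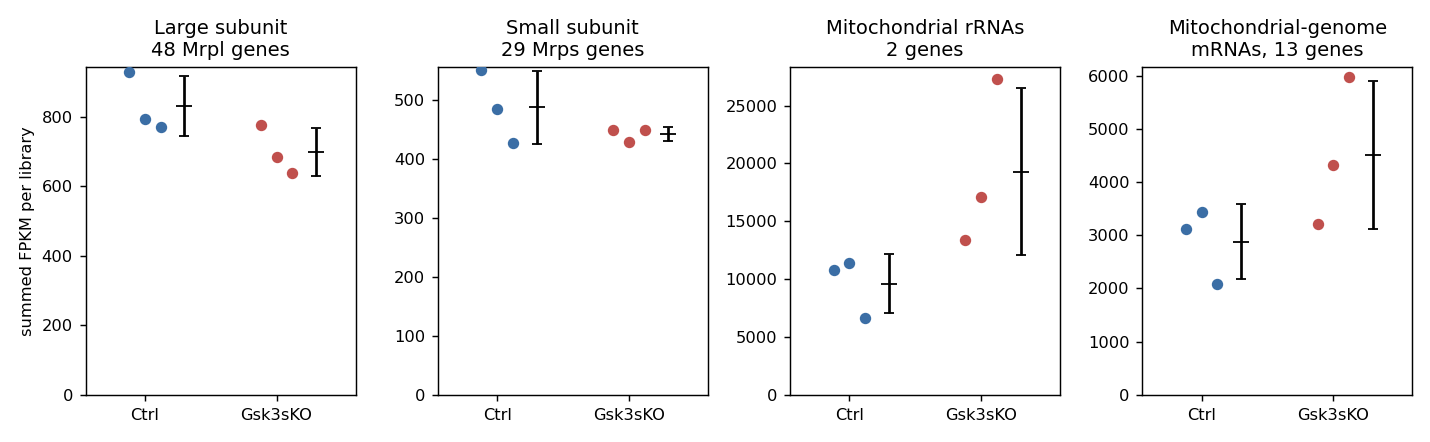
Summed FPKM per library (vertical axes, each starting at 0) of the 48 Mrpl genes, the 29 Mrps genes, the 2 mitochondrial rRNAs and the 13 mRNAs of mitochondrial DNA in Ctrl (blue) and Gsk3sKO (red), with the mean and SD beside the points. The Mrpl sums of Gsk3sKO, at 637 to 775 FPKM, overlap those of Ctrl, at 771 to 929 FPKM, by 1 library, whereas all rRNA sums of Gsk3sKO lie above those of Ctrl.

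Levels within the ribosome spread widely although each protein is present once or a few times per particle. Mean gene totals over the 6 libraries ran from 2.37 to 54.1 FPKM with a median of 13 FPKM. In the large subunit the highest mean levels were those of Mrpl42 at 54.1, Mrpl52 at 45.7 and Mrpl18 at 40.6 FPKM, and the lowest those of Mrpl47 at 2.37, Mrpl53 at 2.88 and Mrpl17 at 4.57 FPKM. In the small subunit Mrps21 at 44.8, Mrps26 at 33.4 and Mrps22 at 30.9 FPKM were highest, and Mrps35 at 4.20, Mrps28 at 7.05 and Mrps16 at 7.36 FPKM were lowest. Exons of 32 members overlap another annotated gene, 8 on the same and 27 on the opposite strand, and since the sources used here do not say whether strand was used in counting, part of the signal of these members may belong to the neighbour. Mrpl47 overlaps Actl6a and Ndufb5, and Mrpl18 overlaps Tcp1, so their places in this order are uncertain.

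Promoter sequences of 68 members were taken from RefSeq on GRCm38.p6 as windows of 250 bases before to 50 bases after the annotated start. They were searched on both strands for letters that ETS-family factors such as GABP (CCGGAAG), NRF1 (GCGC, then 1 base of any kind, then TGCGC) and YY1 (AAGATGGCG) are known to bind, factors described as regulators of nuclear genes for mitochondrial proteins. For 6 members called in the comparison, the 120 bases before the RefSeq start are printed in lower case on the strand of the gene, with any matched motif in capitals. Mrpl12, Mrpl30 and Mrps21 were taken because each holds the same NRF1 letters, and Mrpl53 for its pair of ETS matches. Mrps11 was taken as the member called higher, and Mrpl23 as a called member with none of the 3 motifs in the printed bases. GENCODE M21 places the gene Mrpl23 from chr7:142532686 on, so by that annotation its printed bases lie inside the gene.

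Upstream sequences, 5′ to 3′, on GRCm38.p6:
Mrpl12 (chr11:120484517-120484636, plus strand): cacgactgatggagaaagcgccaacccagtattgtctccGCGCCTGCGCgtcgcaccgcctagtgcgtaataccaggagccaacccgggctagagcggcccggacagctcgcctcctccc
Mrpl30 (chr1:37890357-37890476, plus strand): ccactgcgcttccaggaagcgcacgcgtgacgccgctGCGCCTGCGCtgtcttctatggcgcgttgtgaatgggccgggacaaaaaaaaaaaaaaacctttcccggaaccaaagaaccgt
Mrps21 (chr3:95871515-95871634, minus strand): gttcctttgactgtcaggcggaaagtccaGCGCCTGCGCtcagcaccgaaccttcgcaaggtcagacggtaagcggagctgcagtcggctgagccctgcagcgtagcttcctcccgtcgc
Mrpl53 (chr6:83108988-83109107, plus strand): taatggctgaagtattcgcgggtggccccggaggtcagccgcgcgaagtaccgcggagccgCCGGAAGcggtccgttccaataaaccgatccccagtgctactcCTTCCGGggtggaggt
Mrps11 (chr7:78783011-78783130, plus strand): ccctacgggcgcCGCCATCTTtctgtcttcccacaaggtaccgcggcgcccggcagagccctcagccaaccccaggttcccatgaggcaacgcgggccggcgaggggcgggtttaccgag
Mrpl23 (chr7:142532912-142533031, plus strand): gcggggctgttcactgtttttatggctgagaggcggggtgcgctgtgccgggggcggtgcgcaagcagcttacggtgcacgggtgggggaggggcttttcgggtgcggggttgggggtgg

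In these windows the NRF1 letters began 81, 83 and 91 bases before the RefSeq start of Mrpl12, Mrpl30 and Mrps21, and all 3 matches read GCGCCTGCGC. Mrpl53 held the ETS letters 59 and 16 bases before its RefSeq start, the second on the opposite strand. GENCODE M21 places the gene Mrpl53 from chr6:83109040 on, so by that annotation both matches lie inside the gene. Mrps11 held the YY1 letters 108 bases before its RefSeq start, also on the opposite strand. The ETS letters were found in 13 of 42 Mrpl promoters (31.0%) and 11 of 26 Mrps promoters (42.3%), against 11.9% of 17492 promoters of protein-coding genes. The NRF1 letters were found in 10 Mrpl promoters (23.8%) and 3 Mrps promoters (11.5%), against 6.6% of protein-coding promoters, and the YY1 letters in 4 of each subunit (9.52% and 15.4%), against 1.94%. At least 1 of the 3 stood in 39 of the 68 windows (57.4%), against 18.6% of protein-coding promoters. Among the 7 lower members with a promoter sequence, 2 held the ETS, 3 the NRF1 and 0 the YY1 letters. Such a match is a description of the sequence and not evidence of binding in these cells.

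Of the 8 Mrpl genes called lower, 4 stand in the lists used here for the tunnel exit, the stalk and the central protuberance. Those lists hold 4, 3 and 6 of the 48 Mrpl genes and are not complete. Whether calls gather at these sites was not tested. Mrpl22, Mrpl23, Mrpl24 and Mrpl45 are among the proteins around the tunnel exit, where the new chain leaves the ribosome and meets the inner membrane. These 4 had log2 fold changes below 0, with a median of -0.43, and 2 were called lower. Over all 48 Mrpl genes 83.3% lay below 0 and 16.7% were called lower. Mrpl17 and Mrpl47, which also lie at the exit and were not in that list, had log2 fold changes of -0.74 and -0.35 and were not called. Mrpl23 was at 13.3, 12.6 and 14 FPKM in Ctrl against 10.8, 8.81 and 7.10 FPKM in Gsk3sKO. The groups did not overlap, with all Gsk3sKO values lower (exact permutation test over the libraries, 2-sided, p = 0.1, which 3 against 3 cannot go below), and the limma log2 fold change was -0.55 (SE 0.19, unadjusted p = 0.0216, adjusted p = 0.692). Left out singly, Ctrl replicate 3 or Gsk3sKO replicate 3 took its unadjusted limma p to 0.0659 and 0.0579. With the GC and length correction its log2 fold change was -0.30 (limma, unadjusted p = 0.108). It has no annotated exon overlap with another gene, and 98.5% of its FPKM lay in 1 coding transcript of 692 bases.

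Mrpl24 was at 15.9, 14.8 and 15.2 FPKM in Ctrl against 13.3, 11.3 and 7.43 FPKM in Gsk3sKO. The groups did not overlap and the Ctrl libraries were tight, with a limma log2 fold change of -0.52 (SE 0.22, unadjusted p = 0.0445). Its exons overlap those of Rrnad1 on the opposite strand. Its fold change without Gsk3sKO replicate 3 was -0.30, and its p stayed under 0.05 only when Gsk3sKO replicate 1 was the library left out. Mrpl22 and Mrpl45, the latter a docking protein for the inner membrane, had log2 fold changes of -0.33 and -0.19 with overlapping groups and unadjusted limma p of 0.155 and 0.302.

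The stalk recruits translation factors to the large subunit and is built on Mrpl10 and Mrpl11, with copies of Mrpl12 as its mobile arms. Mrpl12 was at 33.1, 36.6 and 33.7 FPKM in Ctrl against 32.6, 21.4 and 22.9 FPKM in Gsk3sKO. All Gsk3sKO values were lower, but replicate 1 lay within 1 FPKM of the lowest Ctrl value, and the limma log2 fold change was -0.44 (SE 0.18, unadjusted p = 0.0411). Its p was above 0.05 on leaving out any library other than Gsk3sKO replicate 1, with log2 fold changes between -0.32 and -0.46. Mrpl12 shares exon positions with Gm16755 on the opposite strand. Mrpl11 was also lower in every Gsk3sKO library, at 6.92, 6.75 and 5.54 FPKM in Ctrl against 5.45, 5 and 4.43 FPKM, with a log2 fold change of -0.31 (limma, unadjusted p = 0.167). Mrpl10 had a log2 fold change of -0.17 (limma, unadjusted p = 0.444) and overlapping groups.

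The central protuberance contacts the small subunit, and its 6 proteins examined here went in both directions, 3 below and 3 above 0, with a median log2 fold change of -0.08. Mrpl38 was at 21.8, 22.1 and 24.5 FPKM in Ctrl against 21.6, 12.8 and 13 FPKM in Gsk3sKO. The groups were apart by a narrow margin because Gsk3sKO replicate 1 stood at the Ctrl level, and the limma log2 fold change was -0.54 (SE 0.22, unadjusted p = 0.0359). Without Gsk3sKO replicate 1 it was -0.77 (limma, unadjusted p = 0.00265), and without any other single library its p lay between 0.0573 and 0.119. Mrpl48 was at 36.9, 19.2 and 18.9 FPKM in Ctrl against 15.5, 15.2 and 17.7 FPKM in Gsk3sKO, also without overlap, with a log2 fold change of -0.54 (limma, unadjusted p = 0.0689) and an exon overlap with Rab6a. Mrpl46, Mrpl27, Mrpl40 and Mrpl18 had log2 fold changes of -0.24, 0.07, 0.12 and 0.24, each with overlapping groups.

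Mrpl30 and Mrpl54 were called lower although their groups overlapped. Mrpl30, a counterpart of a bacterial large subunit protein, was at 38.3, 27.5 and 17.2 FPKM in Ctrl against 19.1, 14.9 and 15.2 FPKM in Gsk3sKO. Ctrl replicate 3 fell among the Gsk3sKO values, and the limma log2 fold change of -0.66 (SE 0.27, unadjusted p = 0.0388) was -0.40 (unadjusted p = 0.132) without Ctrl replicate 1 and -0.95 (unadjusted p = 0.00261) without Ctrl replicate 3. Leaving out Ctrl replicate 2, Gsk3sKO replicate 2 or Gsk3sKO replicate 3 also took p over 0.05, to 0.0889, 0.101 and 0.0955. Mrpl54, a protein with no bacterial counterpart, was at 21.8, 19.4 and 12.1 FPKM in Ctrl against 9.48, 9.95 and 13.3 FPKM in Gsk3sKO. Here Ctrl replicate 3 lay below Gsk3sKO replicate 3, and the log2 fold change of -0.63 (SE 0.25, limma, unadjusted p = 0.0326) lay between -0.47 and -0.87 with 1 library left out. Its p was under 0.05 only when the library left out was Ctrl replicate 3 or Gsk3sKO replicate 3. With the GC and length correction the log2 fold change of Mrpl54 was -0.35 (limma, unadjusted p = 0.18). In both genes the 2 highest values were those of Ctrl replicates 1 and 2.

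Mrpl55 was at 14.9, 14 and 13.4 FPKM in Ctrl against 13.1, 7.74 and 7.42 FPKM in Gsk3sKO. The 3 Ctrl values were close together and the groups did not overlap, with a limma log2 fold change of -0.58 (SE 0.23, unadjusted p = 0.0357). Without Gsk3sKO replicate 1 the log2 fold change was -0.81 (limma, unadjusted p = 0.00365), and leaving out any other library gave p between 0.0613 and 0.11. In Mrpl23, Mrpl24, Mrpl12, Mrpl38 and Mrpl55 the Ctrl libraries agreed closely and Gsk3sKO replicate 1 lay nearer to them than replicates 2 and 3. The called genes Mrpl30, Mrpl53 and Mrpl54 did not have such close Ctrl values. All were picked by a small p on the same values, which favours close Ctrl values. Replicate 1 also deviated least over all gene totals, with medians of -0.003, -0.06 and -0.10 in Gsk3sKO replicates 1 to 3.

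Mrpl53, a mitochondria-specific protein, had the largest log2 fold change of all members, -1.72 (SE 0.61, limma, unadjusted p = 0.0225, adjusted p = 0.692). Its level was 12.5, 2.09 and 1.40 FPKM in Ctrl against 0.353, 0.153 and 0.806 FPKM in Gsk3sKO. The groups did not overlap, but Ctrl replicate 1 was far above the others because it alone held 9.51 FPKM of a retained-intron transcript, ENSMUST00000129656, whose level was at most 0.806 FPKM in the other libraries. Without Ctrl replicate 1 the log2 fold change was -0.95 (limma, unadjusted p = 0.0378), and with a pseudocount of 0.1 it was -2.88. The coding transcript ENSMUST00000113938 was at 2.97, 2.02 and 1.38 FPKM in Ctrl against 0.316, 0 and 0 FPKM in Gsk3sKO, with a log2 fold change of -1.48 (SE 0.44, limma, unadjusted p = 0.0134), and its p stayed under 0.05 with any 1 library left out. The gene total rests on few reads, from about 3.13 to 398 a library, its p was 0.0511 and 0.0636 without Gsk3sKO replicates 1 and 2, and its exons overlap Gm42688 on the same strand and Ccdc142os on the opposite strand. Both the gene total and the coding transcript lay under 1 FPKM in every Gsk3sKO library, so they passed the filter only through Ctrl. Without the filter the unadjusted limma p of the gene total was 0.0520.

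Other Mrpl genes gave large but variable differences. Mrpl33 was at 10.5, 5.48 and 6.33 FPKM in Ctrl against 8.5, 4.03 and 1.16 FPKM in Gsk3sKO, with a log2 fold change of -0.80 (SE 0.50, limma, unadjusted p = 0.148). Mrpl17 was at 3.59, 4.68 and 9.77 FPKM in Ctrl against 4.77, 3.02 and 1.6 FPKM in Gsk3sKO, with a log2 fold change of -0.74 (limma, unadjusted p = 0.102). By FPKM, Gsk3sKO replicate 3 was lowest by far in Mrpl33 and Ctrl replicate 3 highest by far in Mrpl17, and the groups overlapped in both. The approximate reads did not show these extremes. Mrpl33 had 95.7 in Gsk3sKO replicate 3 against 107 in Gsk3sKO replicate 2. Mrpl17 had 522 in Ctrl replicate 3 against 1092 and 1053 in Ctrl replicates 1 and 2, at unlike depth. The part of the division of reads among transcripts in these totals was not tested. The largest positive log2 fold changes in the large subunit were 0.29 for Mrpl34, 0.24 for Mrpl18 and 0.18 for Mrpl1, all with overlapping groups. Mrpl50 and Mrpl39 were lower in every Gsk3sKO library with smaller log2 fold changes of -0.30 and -0.29, and did not pass an unadjusted limma p of 0.05. The proteins with a bacterial counterpart and those particular to mitochondria had near-equal medians, -0.30 over 30 and -0.29 over 18 genes, with 5 and 3 called lower.

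**Figure D3:**
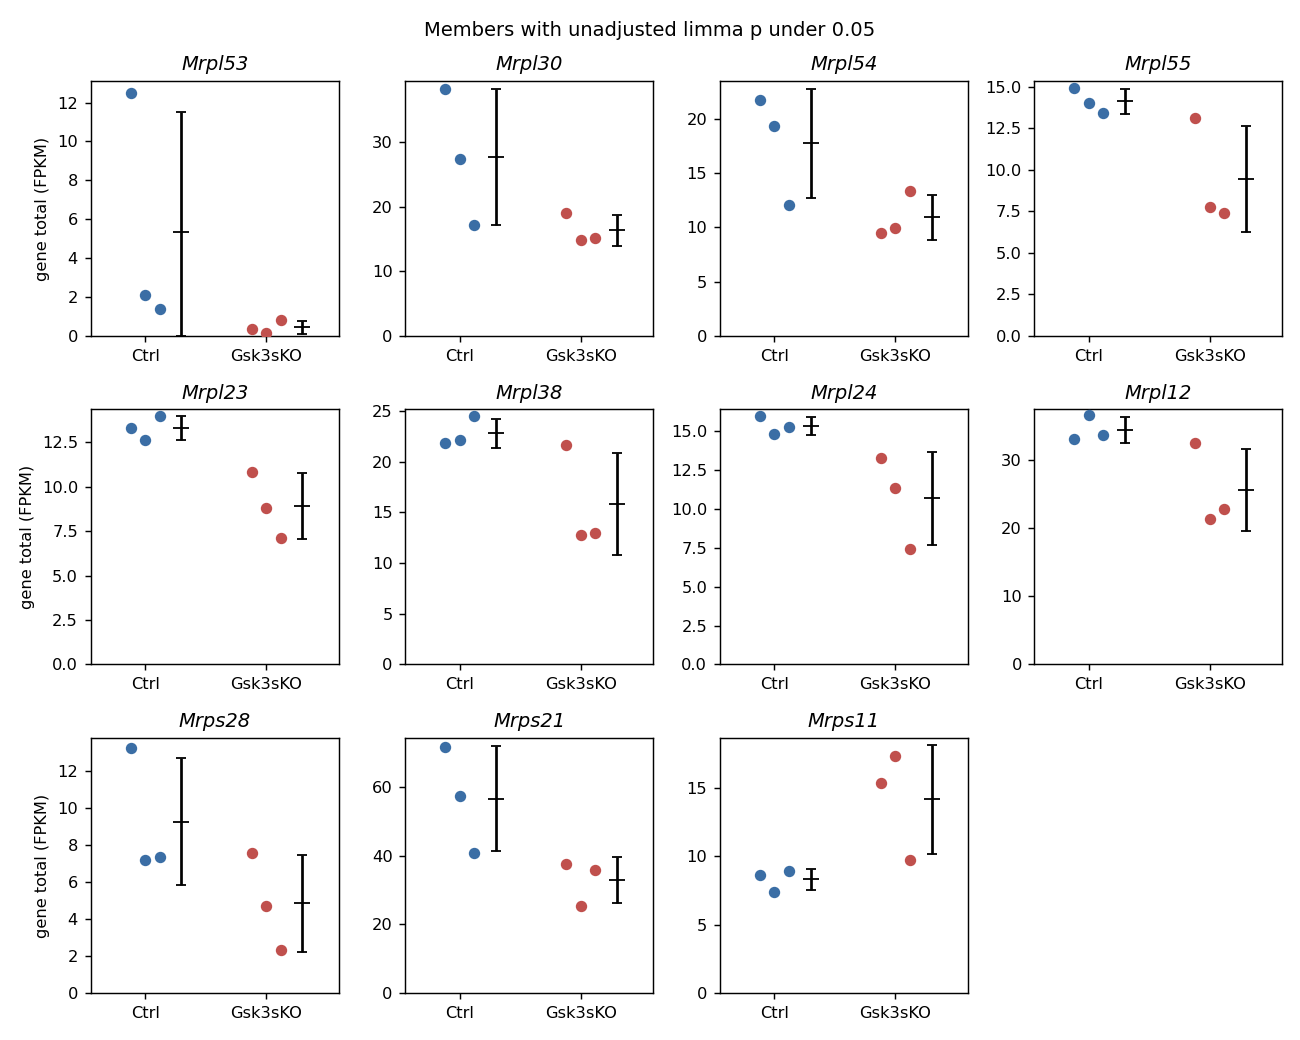
Gene totals (FPKM, vertical axes starting at 0) of the 11 members with an unadjusted limma p under 0.05 in the 3 Ctrl (blue) and 3 Gsk3sKO (red) libraries, in replicate order, with the mean and SD beside the points (a bar that would pass below 0 ends at the axis). All but Mrps11 are lower in Gsk3sKO, with overlapping groups in Mrpl30, Mrpl54 and Mrps28 and without overlap in the other 8.

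In the small subunit, Mrps21 had the smallest p of any member and was also the most abundant Mrps gene. It was at 71.7, 57.3 and 40.9 FPKM in Ctrl against 37.5, 25.4 and 35.9 FPKM in Gsk3sKO. Every Gsk3sKO library was below every Ctrl library, and the limma log2 fold change was -0.75 (SE 0.23, unadjusted p = 0.0117, adjusted p = 0.671). Mrps21 was the only gene total of the 11 whose unadjusted limma p stayed under 0.05 with each single library left out, with log2 fold changes from -0.56 to -0.96, and no other gene overlaps its exons. Its p was 0.0602 in the ordinary linear model, and its log2 fold change was -0.50 with the GC and length correction (limma, unadjusted p = 0.0262). Of its FPKM, 96.2% lay in 1 coding transcript of 488 bases.

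Mrps11, a protein of the platform of the small subunit, was the only member called higher. It was at 8.62, 7.42 and 8.90 FPKM in Ctrl against 15.4, 17.4 and 9.74 FPKM in Gsk3sKO. Every Gsk3sKO library was above every Ctrl library, and the limma log2 fold change was 0.67 (SE 0.23, unadjusted p = 0.0196, adjusted p = 0.688). Without Ctrl replicate 2, Gsk3sKO replicate 1 or Gsk3sKO replicate 2, its unadjusted limma p was 0.0641, 0.0655 and 0.0773. Its total includes retained-intron transcripts, and with coding transcripts alone the unadjusted p was 0.146. Mrps11 lies on chromosome 7 of GRCm38 (chr7:78783119-78792989, plus strand), and its 5′ end shares exon positions with another member on the minus strand, Mrpl46 (chr7:78775236-78783531), whose log2 fold change was -0.24. Reads from the shared part cannot be given to one of these genes if strand was not used.

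Mrps28 was at 13.2, 7.17 and 7.36 FPKM in Ctrl against 7.56, 4.67 and 2.33 FPKM in Gsk3sKO. The groups overlapped, Ctrl replicate 1 and Gsk3sKO replicate 3 lay far out, and the limma log2 fold change of -0.86 (SE 0.38, unadjusted p = 0.0496) was under 0.05 with 1 library left out only when that was Gsk3sKO replicate 1. It was -0.60 without Ctrl replicate 1 and -0.51 without Gsk3sKO replicate 3. Mrps33 had a log2 fold change of -0.66 (limma, unadjusted p = 0.0859) with Ctrl levels of 29.7, 17.3 and 13.7 FPKM against 14, 7.32 and 15.6 FPKM. At the other end, Mrps18b had the largest positive log2 fold change, 0.77 (SE 0.41, limma, unadjusted p = 0.0945), with Ctrl levels of 3.75, 14.3 and 6.20 FPKM against 9.63, 17.2 and 12.5 FPKM. Mrps17 had one of 0.40 (limma, unadjusted p = 0.116). Mrps9, at 18.4, 19.2 and 17.2 FPKM in Ctrl against 19.2, 23.0 and 22.0 FPKM in Gsk3sKO, was higher in every Gsk3sKO library by a small log2 fold change of 0.21 (limma, unadjusted p = 0.188).

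Some members carry a small subunit name but belong elsewhere. Mrps18a and Mrps30 are placed in the large subunit by structure, and had log2 fold changes of -0.26 and 0.06. Mrps36, which was later found to be a component of the α-ketoglutarate dehydrogenase complex, was at 23.0, 13.7 and 13.7 FPKM in Ctrl against 11.8, 9.40 and 12.3 FPKM in Gsk3sKO. All Gsk3sKO values of Mrps36 were lower, with a log2 fold change of -0.51 (SE 0.23, limma, unadjusted p = 0.0583). With the subunits taken from structure and Mrps36 left out, 8 of 50 large subunit genes were called, all lower. Of 26 small subunit genes 2 were called lower and 1 higher, where 5.2% of all gene totals were lower and 1.36% higher. The medians were -0.29 and -0.10. Mrps12, part of the decoding centre, had a log2 fold change of -0.09, with 21.6, 22.8 and 21.1 FPKM in Ctrl and a wider spread of 15.3, 18.2 and 30.8 FPKM in Gsk3sKO.

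Among the 290 member transcripts, 128 had a mean of at least 1 FPKM and were tested in the fit over 21584 transcripts. At an unadjusted limma p under 0.05, 9 were called, 8 lower and 1 higher, where 5.56% of all transcripts were called, 3.75% lower and 1.81% higher. Each of these 9 had groups that were fully apart, but they were picked by a small p on the same values, which favours such separation. Over all tested transcripts, called or not, 6.96% had only lower and 4.28% only higher values in Gsk3sKO. That share is therefore no like comparison for the 9. No transcript in the whole table passed an adjusted p under 0.05, and the smallest among members was 0.427. Members have 1 to 11 listed transcripts, 16 of them a single one, and the division of reads among overlapping transcripts is an estimate.

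In Mrpl2 and Mrpl3, which form part of the core around the site of peptide bond formation, a transcript was lower while the gene total was not. The Mrpl2 coding transcript ENSMUST00000113429 was at 10.8, 6.26 and 11.1 FPKM in Ctrl against 1.95, 0 and 0 FPKM in Gsk3sKO, with a log2 fold change of -2.82 (SE 0.53, limma, unadjusted p = 0.00161). The other transcripts of Mrpl2 summed to 15, 6.79 and 5.26 FPKM in Ctrl against 13.7, 16 and 14.4 FPKM in Gsk3sKO, so the log2 fold change of the whole gene was -0.19 (limma, unadjusted p = 0.442). The Mrpl3 coding transcript ENSMUST00000149243 was at 6.89, 3.10 and 3.01 FPKM in Ctrl against 0.709, 0.200 and 0.555 FPKM in Gsk3sKO, with a log2 fold change of -1.78 (SE 0.43, limma, unadjusted p = 0.00545), against 0.02 for the gene total. Both transcripts were lower in every Gsk3sKO library and their unadjusted p stayed under 0.05 with any 1 library left out. With a pseudocount of 0.1 their log2 fold changes were -5.07 and -2.93, and those of the called transcripts of Mrpl21, Mrpl53 and, in the upward direction, Mrpl55 were -2.90, -3.73 and 3.07. The Gsk3sKO means of the called transcripts of Mrpl2, Mrpl3, Mrpl21 and Mrpl53 were under 1 FPKM, so these passed the filter only through Ctrl. The raised Mrpl55 transcript passed it only through Gsk3sKO. Such transcripts entered the test through the group in which they were high, which limits what their p can show.

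Mrpl55 combined both directions. Its coding transcript ENSMUST00000108787 was at 0.393, 0.0117 and 0.466 FPKM in Ctrl against 1.56, 2.97 and 3.48 FPKM in Gsk3sKO, with a log2 fold change of 1.49 (SE 0.43, limma, unadjusted p = 0.0127). Another, ENSMUST00000045697, was at 7.82, 6.84 and 3.29 FPKM in Ctrl against 2.13, 2.50 and 3.20 FPKM in Gsk3sKO, with a log2 fold change of -0.90 (limma, unadjusted p = 0.0498), and p above 0.05 on leaving out any library other than Ctrl replicate 3 (log2 fold changes of -0.69 to -1.01). Neither pair of groups overlapped. A retained-intron transcript of Mrpl21, ENSMUST00000154785, was at 18.6, 2.25 and 3.87 FPKM in Ctrl against 0.522, 2.05 and 0.213 FPKM in Gsk3sKO, and its log2 fold change of -1.93 (limma, unadjusted p = 0.0426) was -1.16 (unadjusted p = 0.0966) without Ctrl replicate 1 and had p of 0.0627, 0.102 and 0.122 without Ctrl replicate 3 and Gsk3sKO replicates 1 and 3. The Mrpl48 transcript ENSMUST00000146003 had a log2 fold change of -0.97 (limma, unadjusted p = 0.0466), and the remaining calls were the leading transcripts of Mrps21 and Mrpl23 and the coding transcript of Mrpl53. With 1 library left out, the unadjusted limma p reached 0.144 for the transcript of Mrpl48, 0.0862 for that of Mrps21 and 0.0911 for that of Mrpl23.

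**Figure D4:**
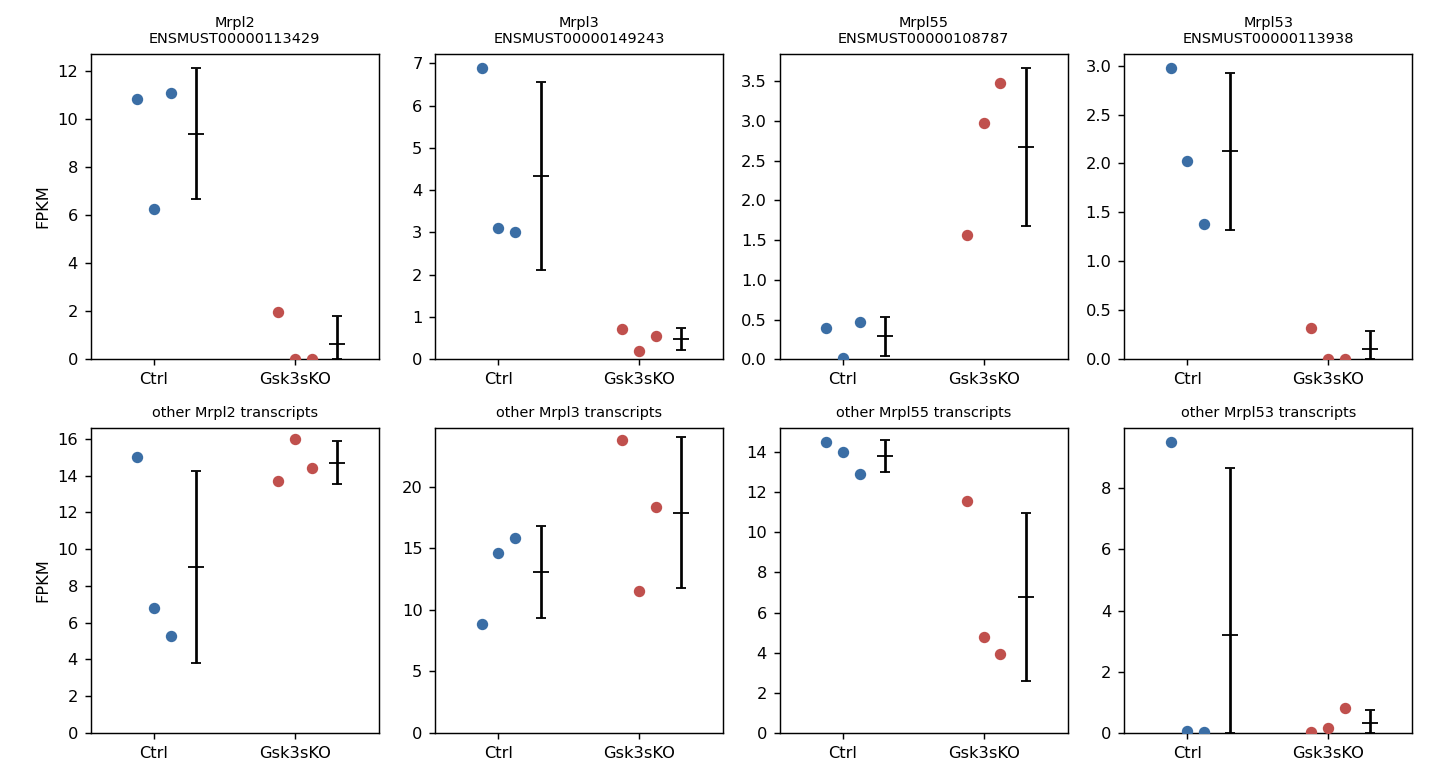
FPKM per library of a single transcript (top) and of the sum of the other transcripts of the same gene (bottom) for Mrpl2, Mrpl3, Mrpl55 and Mrpl53 in Ctrl (blue) and Gsk3sKO (red), with mean and SD beside the points (bars end at the axis). The upper transcripts of Mrpl2, Mrpl3 and Mrpl53 are lower and that of Mrpl55 is higher in every Gsk3sKO library, while the other Mrpl2 transcripts reach 13.7 to 16 FPKM in Gsk3sKO.

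The RNA partners of these proteins went the other way. The mitochondrial rRNA mt-Rnr1, of the small subunit, was at 4290, 4385 and 2624 FPKM in Ctrl against 5435, 6748 and 13255 FPKM in Gsk3sKO, a log2 fold change of 1.10 (SE 0.38, limma, unadjusted p = 0.0185). The large subunit rRNA mt-Rnr2 was at 6484, 6997 and 4061 FPKM in Ctrl against 7940, 10383 and 14077 FPKM in Gsk3sKO, a log2 fold change of 0.88 (SE 0.33, limma, unadjusted p = 0.0262). Both were higher in every Gsk3sKO library, and their share of all summed FPKM was 1.77%, 2.07% and 1.61% in Ctrl and 3.17%, 4.30% and 7.09% in Gsk3sKO. These RNAs are made inside mitochondria and are not bound by cytosolic ribosomes, so their level in an immunoprecipitate of tagged Rpl22 includes RNA carried along with it. Since FPKM is relative to all mapped fragments, a larger share of such RNA lowers the FPKM of other genes, and the part of this in the Mrpl values was not tested.

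The mRNAs that the mitoribosome translates also tended to higher values, with overlapping groups in most. Of 13, 12 had a log2 fold change above 0, and the median was 0.59. Called higher were 3, namely mt-Cytb (0.95), mt-Atp6 (0.80) and mt-Nd5 (0.76), where 1.36% of all gene totals were. Only mt-Atp6 had groups without overlap. The summed level was 3122, 3428 and 2086 FPKM in Ctrl against 3220, 4324 and 5974 FPKM in Gsk3sKO, so these groups overlapped too. Levels of mt-Nd4l were erratic, near 0 in 3 libraries and at least 54.1 FPKM in the others. The nuclear-encoded subunits of oxidative phosphorylation, which assemble with those products, had 14 of 75 lower (18.7%, against 5.2% of all gene totals), 1 higher and a median log2 fold change of -0.19, between those of the Mrps and Mrpl genes. In 6 of them (8.0%) every Gsk3sKO value lay below every Ctrl value, near the 8.3% of all gene totals, against 20.8% of Mrpl genes. Atp5g1, a ring subunit of ATP synthase, was at 24.9, 22.3 and 27.4 FPKM in Ctrl against 11.3, 9.20 and 7.63 FPKM in Gsk3sKO, with a log2 fold change of -1.33 (SE 0.19, limma, unadjusted p = 8.02e-05, adjusted p = 0.129). Ndufa1 and Ndufb6 of complex I had log2 fold changes of -1.11 and -0.88, and Ndufb5 of 0.76. The groups of Ndufa1 overlapped, at 110, 50.9 and 26.0 FPKM in Ctrl against 30.9, 16.4 and 27.0 FPKM in Gsk3sKO, with Ctrl replicate 1 highest by far. Those of Ndufb5 did not overlap. The cytosolic ribosomal proteins had 7 of 83 tested genes lower (8.43%), 1 higher and a median of -0.11. Among those called, Rpl37a (-1.16), Rpl37 (-1.15) and Rpl10 (-0.83) had the largest negative log2 fold changes, and Rps27 (0.55) was the one called higher.

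The proteins that build the mitoribosome or work on it varied by list. Of 23 assembly factors 0 were called by limma at an unadjusted p under 0.05, with a median log2 fold change of -0.11. Of 16 translation factors 2 were lower (12.5%, against 5.2% of all gene totals), and the median was -0.04. The 2 were Gfm2, which helps to recycle ribosomes, at -0.96 (limma, unadjusted p = 0.0157), and the initiation factor Mtif3 at -0.96 (limma, unadjusted p = 0.0252). Of 20 mitochondrial aminoacyl-tRNA synthetases 1 was lower (5.0%, near the 5.2% of all gene totals), and the median of -0.27 was near that of Mrpl genes. The gene called was Lars2, which charges leucine tRNA, at -0.95 (limma, unadjusted p = 0.0129). Its groups overlapped, at 127, 125 and 67.5 FPKM in Ctrl against 73.7, 51.8 and 38.3 FPKM in Gsk3sKO. Of 6 mitoribosome proteins without an Mrp name 1 was higher, where 1.36% of all gene totals were. It was Ptcd3 of the small subunit, at 9.07, 9.49 and 9.92 FPKM in Ctrl against 12, 15.2 and 13 FPKM in Gsk3sKO (log2 fold change 0.45, limma, unadjusted p = 0.0283). No adjusted limma p in these lists was under 0.05.

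**Figure D5:**
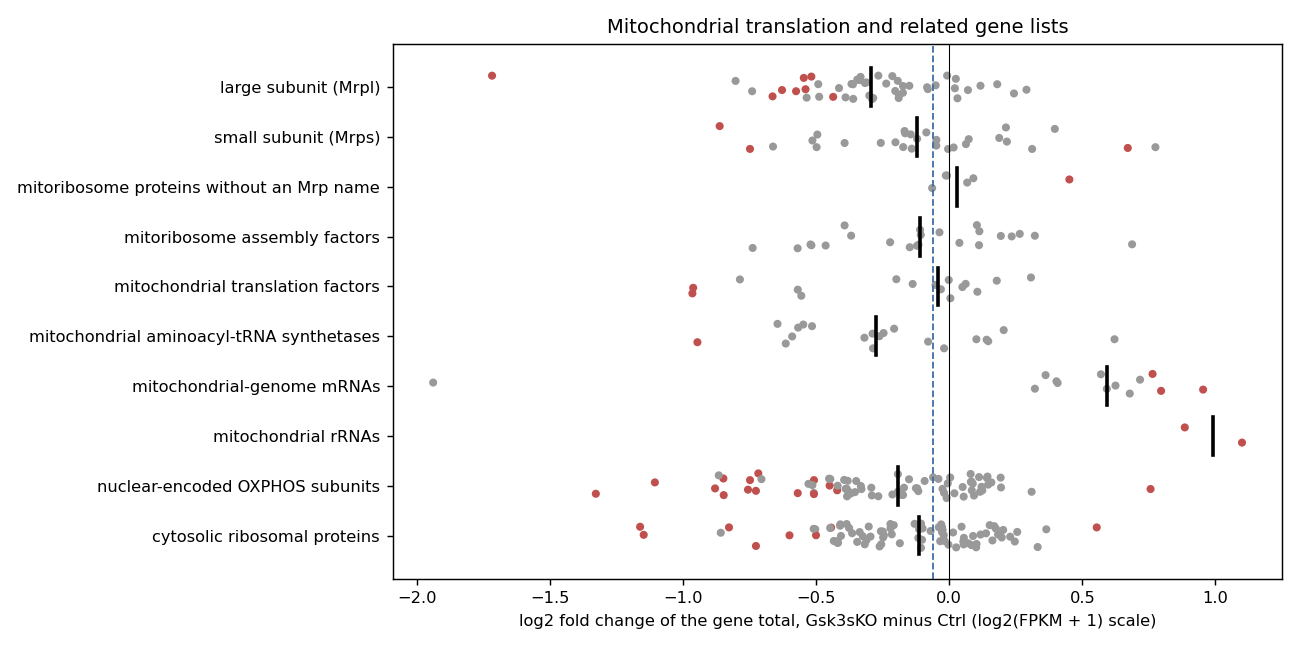
Log2 fold change of each gene total (Gsk3sKO minus Ctrl, log2(FPKM + 1) scale, horizontal axis) in the Mrpl and Mrps genes and 8 related lists (rows), with red for an unadjusted limma p under 0.05, a black bar for the median of each list and a dashed line for the median of all gene totals, -0.06. The Mrpl median is at -0.29, the Mrps median at -0.12, and both mitochondrial rRNAs and 12 of 13 mitochondrial mRNAs lie right of 0.

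Markers of other cells were present in all libraries. Astrocyte markers summed to 55.1 to 67.0 FPKM in Ctrl and 49.8 to 70.9 FPKM in Gsk3sKO with none of 5 called, and endothelial markers to 9 to 29.5 and 12.5 to 28.1 FPKM with none of 3 called. Oligodendrocyte markers summed to 87.1 to 139 FPKM in Ctrl and 93.3 to 130 FPKM in Gsk3sKO, with Mog and Mag, 2 of 4, lower at an unadjusted limma p under 0.05. Microglial markers summed to 12.1 to 17.6 and 10.4 to 14.9 FPKM, with C1qa, 1 of the 4 tested, lower. Excitatory neuron markers ranged over 855 to 971 FPKM in Ctrl and 823 to 1024 FPKM in Gsk3sKO and inhibitory ones over 168 to 342 and 246 to 278 FPKM, with none called. No marker was at 0 in all libraries, and the part of other cells in the Mrpl values was not tested. In bulk RNA of this kind, fewer cells of a type and less RNA per cell cannot be told apart.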

How the data were processed

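RNAseq of RiboTag immunoprecipitates gave 3 Ctrl and 3 Gsk3sKO in mPFC D2 libraries, grouped by the submitters' labels. The authors deposited FPKM per transcript and library, and the authors also deposited a fold, a p-value and a q-value per transcript for their own comparison, made before deposit and not used here. The submitters' processing notes list HISAT2 2.1.0, SAMtools 1.9, StringTie 1.3.4d and GRCm38, while tool settings and the use of strand were not found in these sources.

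FPKM were summed by gene identifier, and gene totals and transcripts with a mean of at least 1 FPKM were tested 2-sided with limma 3.58.1 in R 4.3.3 (eBayes with a trend) on log2(FPKM + 1), adjusted by the Benjamini-Hochberg method, after a test on simulated data. Calls use an unadjusted p under 0.05 unless an adjusted p is named. Exact permutation tests over 6 libraries cannot go below 0.1. FPKM give no counting intervals. Positions follow GENCODE M21, in which 114237 transcripts were found, and promoters follow RefSeq.

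The members and all lists were chosen with earlier results of these data known. Named members are those called, the 3 highest, 3 lowest, 3 most raised and 3 most reduced of each subunit, and those of known sites. In related lists at most 3 called genes per direction are named. Mrpl50, Mrpl39, Mrps9, mt-Nd4l and the markers called were added after their values were seen. Alternatives were another pseudocount (0.1), no filter or one of 5 FPKM, median-ratio scaling, a replicate block, an ordinary linear model, each library left out, subunits by structure, coding transcripts alone, and a GC and length correction, the last 2 chosen after seeing the data.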

Additional observations from a re-analysis of the deposited data

How the results depend on the processing

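The Mrpl median of -0.29 stayed below 0 in all alternatives, between -0.33 and -0.19, with -0.33 to -0.22 when single libraries were left out. The Mrps median of -0.12 was -0.0029 after the GC and length correction and -0.17 to -0.0245 with single libraries left out, nearest 0 without Ctrl replicate 1 and then without Gsk3sKO replicate 2 (-0.0334), Ctrl replicate 2 (-0.0478) or Gsk3sKO replicate 3 (-0.065).

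The 8 Mrpl calls became 4 with median-ratio scaling, 5 with the replicate block, 1 with the ordinary linear model and 2 with the GC and length correction. They ranged from 2 to 8 with single libraries left out, namely 3 when Ctrl replicate 1 or 2 was omitted, 2 for Gsk3sKO replicate 2 and 5 for its replicate 3. The 3 Mrps calls became 0 with the ordinary linear model, 1 with coding transcripts alone and 2 to 5 with single libraries left out, the 5 being without Ctrl replicate 3. The 9 transcript calls became 3 at a mean of at least 5 FPKM, where 72 transcripts were tested, and 6 to 14 with single libraries left out, the 14 being without Gsk3sKO replicate 1. Where another setting of the scaling, model or correction changed a count, the cause was not tested. The count of 844 over all gene totals was 564 at a mean of at least 5 FPKM, 1121 without the filter and 577 to 1175 with single libraries left out. No called member changed direction.

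Same-numbered libraries did not deviate together (correlations of -0.0274, -0.0108 and -0.0809), and no library correlated best with its own number. With deviations taken within groups of 3 libraries, this check cannot settle whether the numbers pair the samples. The labels do not say so either. The replicate block left 821 calls over all gene totals and 4 in Mrps.

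FPKM carry no counting error, so how far depth limits each value is unknown beyond the approximate reads, which were fewest for Mrpl53.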
